A study of Mus musculus with 12 samples.

Results

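The immediate early genes are a set of 35 genes, found by symbol among the 32285 genes of 6 single-cell count matrices from mouse joint tissue. They were grouped by role as 9 AP-1 and related leucine zipper factors, 13 other transcription regulators, 8 signalling regulators and 5 genes of mRNA decay and growth arrest. The genes were taken by name and not by a contrast between these libraries.

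Immediate early genes are transcribed within minutes of a stimulus from promoters that need no new protein, through kinases such as ERK and p38 and the factors SRF, CREB and NF-kB. Their first products are transcription factors, and others among them, the phosphatases of the DUSP family and the mRNA-destabilising ZFP36 proteins, shut the same response down. In lymphocytes they report recent receptor or cytokine signalling, and in any tissue that is digested and sorted they are also known to be switched on by the handling of the cells.

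RefSeq promoter windows (GRCm38.p6, 250 bases before to 50 after a start) were at hand for 27 of the 35 genes. Egr1, Egr3, Fosl1, Ier2, Klf10, Myc, Rgs1 and Zfp36l2 had no entry. Both strands of the 250 bases before each start were searched for 5 motifs, and the percentages that follow are shares of all 27025 genes in the table with a match before any of their starts, counted as for the members. The cAMP response element TGACGTCA stood in Btg2, Dusp1 and Maff (1.77% of all genes). The EGR motif GCGNGGGCG was found in 11 members (5.33%), namely Btg2, Dusp2, Fosb, Fosl2, Gadd45b, Klf4, Maff, Nr4a1, Nr4a2, Rgs2 and Zfp36. Dusp5, Egr2 and Zfp36 held a CArG box, to which SRF binds (1.62%). The AP-1 motif TGANTCA was present in Csrnp1 and Zfp36l1 (7.82%), and an NF-kB motif in Dusp5 (1.65%). The 150 bases before the start are shown for 5 members that differ between groups in the results that follow and carry one or more of these motifs, 5′ to 3′ on the strand of the gene, with motif matches in capitals. Maff has several annotated starts, of which 1 is shown, and in Dusp5 the NF-kB match overlaps the first of a pair of CArG boxes.
Nr4a2 (chr2:57124004-57124153, - strand): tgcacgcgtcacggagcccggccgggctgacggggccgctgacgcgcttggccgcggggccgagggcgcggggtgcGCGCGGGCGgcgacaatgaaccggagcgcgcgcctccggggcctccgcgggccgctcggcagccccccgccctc
Zfp36 (chr7:28379229-28379378, - strand): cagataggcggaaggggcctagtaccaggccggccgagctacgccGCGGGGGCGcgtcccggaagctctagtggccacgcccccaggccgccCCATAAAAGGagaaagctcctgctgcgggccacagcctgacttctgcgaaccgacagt
Dusp1 (chr17:26508473-26508622, - strand): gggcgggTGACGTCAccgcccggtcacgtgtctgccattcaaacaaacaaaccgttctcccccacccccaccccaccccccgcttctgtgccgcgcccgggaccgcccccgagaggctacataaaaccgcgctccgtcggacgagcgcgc
Maff (chr15:79347370-79347519, + strand): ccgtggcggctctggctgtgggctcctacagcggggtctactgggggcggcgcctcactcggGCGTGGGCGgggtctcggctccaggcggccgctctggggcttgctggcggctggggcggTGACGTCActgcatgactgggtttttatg
Dusp5 (chr19:53528995-53529144, + strand): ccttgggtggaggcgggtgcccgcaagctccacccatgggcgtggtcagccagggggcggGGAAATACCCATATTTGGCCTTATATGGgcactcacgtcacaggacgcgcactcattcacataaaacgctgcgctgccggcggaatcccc
A match is a string of letters and not a site shown to be bound. The EGR match is the only one of the 5 motifs in the Nr4a2 stretch, Zfp36 joins an EGR match to a CArG box, Dusp1 and Maff share the cAMP response element, and the 3 matches of Dusp5 run into each other.

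All mice, the healthy controls included, were reporter animals with R26 tdTom/tdTom alleles and an Il5 locus that is wt/Cre, of the strain R5 x R26tdTomato, and were 8 to 10 weeks old. The labels name 3 conditions: untreated (healthy), serum transfer arthritis (STA), in which joint inflammation follows the injection of arthritogenic serum, and STA with a minicircle, a small DNA vector, that encodes interleukin-23 (STA + Il23mc). Cells of ankle and wrist joints were sorted as innate lymphoid cells (ILCs; CD45+ tdTomato+ cells without CD3, TCRb, TCRgd, CD11b or GR-1 at the surface) or as fibroblasts (CD45- GR-1-). The gate thus keeps cells in which Cre from the Il5 locus has acted. In experiment 1 each condition had an ILC well with 3 hashtagged mice, and the fibroblasts of all 3 conditions shared a well with 1 hashtag each. Experiment 2 had 1 ILC well and 1 fibroblast well, each with a healthy, a mild STA and a severe STA hashtag. The protocol speaks of 4 animals pooled per well, whereas each well held 3 hashtags, so how many animals stand behind a hashtag outside the ILC wells of experiment 1 is not known, and p-values measure the spread between these hashtags. In experiment 1 the condition of ILCs and their well cannot be told apart.

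Levels are UMIs of a gene per 1000000 UMIs (CPM), summed over the cells of 1 mouse or hashtag. Group 2 ILCs (ILC2), which make type 2 cytokines, numbered 179 to 417 cells per mouse in experiment 1 and 369 to 799 per hashtag in experiment 2. Group 3 ILCs (ILC3), the interleukin-17 and interleukin-22 producers, numbered 28 to 463 cells per healthy or Il23mc mouse, and fibroblasts 305 to 985 cells and 3802839 to 17486618 UMIs per hashtag. Median UMIs per cell ran from 3588 to 5861 in ILC2 and from 7748 to 17370 in fibroblasts. The ILC2 markers summed to 4006 to 6924 CPM in the ILC2 sums and to at most 169.5 CPM in fibroblasts, while fibroblast markers were at most 32.3 CPM in ILC2. Those 2 labels held up against each other's markers, but the ILC3 marker sum was 403 to 587 CPM in healthy ILC3 and 614 to 753 CPM in healthy ILC2 of experiment 1, so the healthy cells of the ILC3 clusters did not stand out by the markers of their name. The ILC2 marker sum was 2148 to 2314 CPM in the same healthy ILC3, above their ILC3 marker sum, and 4275 to 4924 CPM in healthy ILC2 of experiment 1. Barcodes shared between wells numbered 0 to 3 per pair among the cells used. A lower sum can reflect fewer expressing cells or less RNA per cell, and these cannot be told apart in sums.

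In ILC2 the 35 genes together took 2.64 to 3.12% of all UMIs in the 3 healthy mice, 2.20 to 2.57% in the 3 STA mice and 2.39 to 2.87% in the 3 Il23mc mice of experiment 1. Fibroblast hashtags of experiment 1 gave 2.23% in healthy, 1.52% in STA and 1.63% in STA + Il23mc mice. Experiment 2 lay higher in ILC2, at 4.3% in the healthy hashtag and 3.63 and 3.78% in the STA hashtags, and in fibroblasts at 2.54% and at 2.24 and 2.34%. Cells without any UMI of the 35 genes were not seen in any sum. In ILC2 and fibroblasts the 5% of cells richest in them held 11.3 to 14.9% of their UMIs, against 5.28 to 9.36% of all UMIs.

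**Figure D1:**
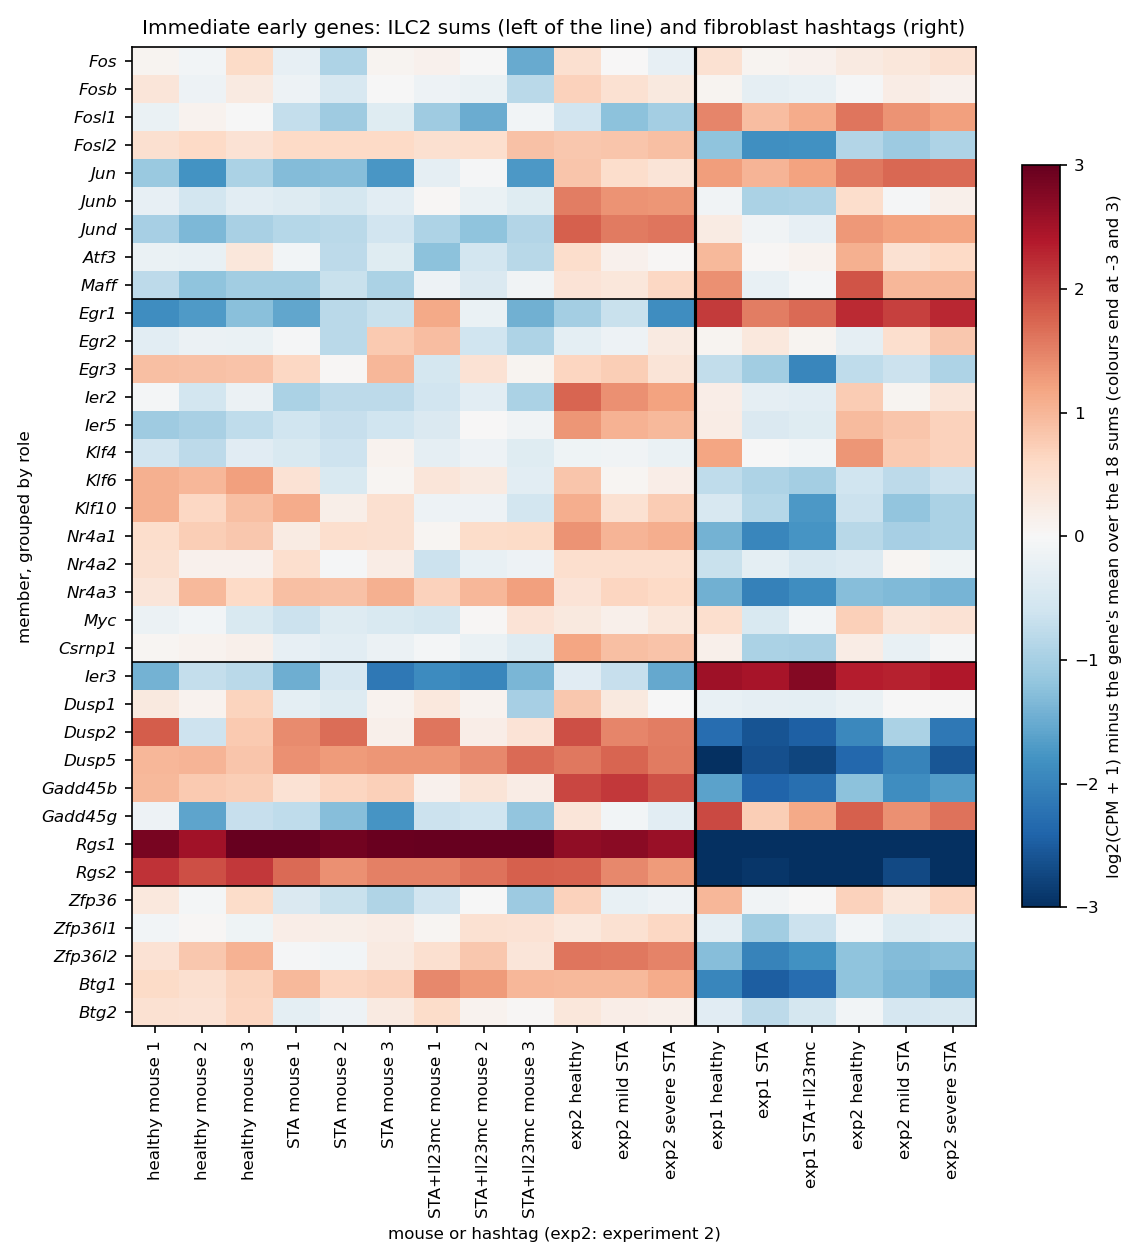
Each row is an immediate early gene, each column an ILC2 sum (left of the vertical line) or a fibroblast hashtag (right), and the colour is log2(CPM + 1) minus the mean of the gene over the 18 sums; horizontal lines part the 4 roles. Rgs1 and Rgs2 are high in all 12 ILC2 sums, Egr1 and Ier3 in all 6 fibroblast hashtags, and many rows are higher in experiment 2 than in experiment 1 on the left.

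Most members differed in level between ILC2 and fibroblasts, as did most of all genes tested. All 35 members had UMIs in every ILC2 sum, and 34 had them in every fibroblast hashtag. Of the 35 genes, 20 were higher in ILC2 (35.4% of the 11439 genes tested were) and 9 were higher in fibroblasts (44.3%) at an adjusted p of 0.05 in edgeR, with terms for experiment and condition. The median log2 difference, ILC2 minus fibroblasts, was 0.72 over the members and -0.14 over all genes. That median of all genes is -0.26 with DESeq2 and 0.02 with upper-quartile scaling, where the share of higher calls is 40.5% and 50.1% in place of 44.4%, so small differences shift with the scaling. ILCs and fibroblasts never shared a well, and cell type and well cannot be told apart here.

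The AP-1 factors, which pair into dimers that bind the AP-1 motif, split between the cell types, with 3 higher in ILC2 and 4 in fibroblasts. Fosl2 was higher in ILC2 by 2.17 (SE 0.123, adjusted p = 1.40e-12, edgeR), at 837 ± 101 CPM (SD, n = 12) against 225 ± 61.8 CPM (n = 6), and Junb by 0.80. Jun, at 1556 ± 306 CPM in fibroblasts and 432 ± 296 CPM in ILC2, was lower in ILC2 by a log2 difference of -1.66 (SE 0.212, adjusted p = 4.81e-07, edgeR). Fosl1 (-1.85), Maff (-0.89) and the stress-induced Atf3 (-0.53) were also higher in fibroblasts. Fosb was 0.28 higher in ILC2, a call that ends, with a value of -0.21, when all lymphoid cells replace ILC2. Fos itself did not pass, at 2082 ± 681 CPM in ILC2 and 2643 ± 285 CPM in fibroblasts, nor did Jund. The order of the cell types for Junb and Jund depended on the experiment. Healthy Junb was at 1078 to 1324 CPM in ILC2 and 1464 CPM in fibroblasts in experiment 1, and at 4605 and 2259 CPM in experiment 2. In STA of experiment 1 Junb was at 1101 to 1260 CPM in ILC2 and 812 CPM in fibroblasts. Healthy Jund was at 253 to 326 against 768 CPM in experiment 1 and 2253 against 1581 CPM in experiment 2.

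Among the other transcription regulators 7 were higher in ILC2 and 2 in fibroblasts. The NR4A orphan nuclear receptors were all higher in ILC2, Nr4a3 by 2.47, Nr4a1 by 2.31 and Nr4a2 by 0.72 (edgeR, adjusted p at most 2.91e-05). Nr4a1 was at 1969 ± 513 CPM in ILC2 and 501 ± 153 CPM in fibroblasts. Egr3 (1.76), Klf10 (1.69), Klf6 (1.33) and Csrnp1 (0.81) followed. Egr1, the zinc-finger factor that binds the EGR motif, went the other way: fibroblasts held 1622 ± 314 CPM and ILC2 248 ± 216 CPM, a log2 difference of -2.79 (SE 0.299, adjusted p = 3.81e-08, edgeR). Klf4 was lower in ILC2 as well (-0.78). Egr2, Ier2, Ier5 and Myc did not pass.

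All 8 signalling regulators differed between the cell types. Rgs1 and Rgs2 encode GTPase-activating proteins that end signalling from G protein-coupled receptors. Rgs1 ran from 675 to 1845 CPM in the 12 ILC2 sums and from 0 to 3.36 CPM in the fibroblast hashtags, a log2 difference of 10.08 (SE 0.459, adjusted p = 3.74e-14, edgeR). After every cell was thinned to 2000 UMIs, 49.2 to 78% of ILC2 held a UMI of Rgs1, against 0 to 0.219% of fibroblasts (unthinned, 65 to 86.9% and 0 to 0.508%). The fibroblast hashtags held 0 to 24 UMIs of Rgs1 each, so the size of that difference rests on very few UMIs, and free RNA was not measured here. Rgs2 was higher by 5.09, at 2713 ± 554 against 84.8 ± 32.6 CPM. Dusp5 and Dusp2, phosphatases that act on ERK in the nucleus, were higher by 4.32 and 4.26 (4 to 26 UMIs of Dusp2 per fibroblast hashtag), Gadd45b by 3.14 and Dusp1 by 0.48. Ier3, a regulator of cell survival under stress, was 910 ± 108 CPM in fibroblasts and 74.3 ± 31 CPM in ILC2 (-3.48, SE 0.214, adjusted p = 5.67e-12, edgeR), and Gadd45g was lower in ILC2 too (-1.85).

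Of the mRNA decay and growth arrest genes Btg1 (2.93), Zfp36l2 (2.56), Zfp36l1 (0.90) and Btg2 (0.84) were higher in ILC2 and Zfp36, which encodes tristetraprolin, was higher in fibroblasts (-0.41, SE 0.14, adjusted p = 0.0117, edgeR). The pathway lists can be read against the 35.4% of all genes higher and 44.3% lower in ILC2. Of 19 upstream kinases and factors tested 10 were higher and 5 lower in ILC2, led by Crem (4.43) and Creb1 (1.84), members of the CREB family. Of 16 NF-kB response genes 13 were higher and 2 lower, led by Nfkbid (8.90) and Tnfaip3 (3.62). Of 9 later ERK feedback genes tested 5 were higher and 4 lower, with Spred1 at -3.23 and Spry2 at 2.05. Among 10 heat shock genes 2 were higher and 1 was lower, with Hspb1 at -4.05 and Dnaja1 at 1.13.

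Experiment 2 lay above experiment 1 for many members within the same condition. In healthy ILC2, 26 of 35 members were higher in the 1 hashtag of experiment 2 than in all 3 mice of experiment 1, as were 31.9% of the 9852 genes measured, and in STA ILC2 19 of 35 were (28.9%). Jund, an AP-1 factor, was at 253 to 326 CPM in the healthy mice of experiment 1 and 2253 CPM in the healthy hashtag of experiment 2. Gadd45b stood at 1629 to 1918 and 3895 CPM, and Ier2 at 164 to 229 and 800 CPM. In fibroblasts 25 of 35 members were higher in the healthy hashtag of experiment 2 (59.3%), and 32 of 35 in STA (51.7%). Comparisons of conditions were therefore made within experiment 1 or with a term for experiment.

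In ILC2 of STA mice 2 members fell and none rose. Klf6, a zinc-finger factor of the Kruppel family, was at 1885, 1801 and 2120 CPM in the healthy mice and 1209, 657 and 941 CPM in the STA mice. Every STA value is below every healthy one, and the log2 change was -0.98 (SE 0.19, adjusted p = 0.0108, edgeR, 3 mice per group). Zfp36 was at 1101, 842 and 1287 CPM in healthy mice and at 654, 550 and 468 CPM in STA mice, again without overlap, with a change of -0.88 (SE 0.224, adjusted p = 0.0466, edgeR). Over all 7213 genes 1.69% were higher and 1.18% lower. The count of 0 higher members compares with 5 at an unadjusted p below 0.05, and 6 were lower at that level. DESeq2 called 0 members higher and 3 lower (116 and 60 of all genes). Counts at an unadjusted p, here and in what follows, were made for the members alone and have no share over all genes. The median change was -0.16 over the members and -0.01 over all genes.

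Experiment 2, which entered no part of that test, gave lower values of both genes in arthritis too. Klf6 stood at 1588 CPM in its healthy ILC2, at 940 CPM in mild and at 1030 CPM in severe STA, and Zfp36 at 1407, 750 and 796 CPM. Of the 35 members 23 were lower in the mild and 28 in the severe hashtag than in the healthy one, with median log2 ratios of -0.23 and -0.27 against -0.03 and -0.01 over all genes, and these share the healthy hashtag. As in the comparison before, STA cells of experiment 2 took their class from their nearest annotated neighbours, while its healthy cells have the authors' classes. The part of this difference in the values of experiment 2 was not tested.

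The most abundant members did not pass in the STA comparison of experiment 1. Rgs2 was at 3709, 3167 and 3632 CPM in healthy and 2690, 2145 and 2378 CPM in STA mice (-0.47, adjusted p = 0.0555, edgeR), groups that do not overlap. Groups without overlap were seen for 4 members with higher and 10 with lower values in STA (8.36 and 14.7% of all genes). Fos, the archetype of the class, was at 2277, 2037 and 3212 CPM in healthy mice and 1822, 1127 and 2273 CPM in STA mice, which overlap. Log2 changes were 0.28 for Btg1, -0.21 for Nr4a1, 0.32 for Zfp36l1 and -0.16 for Gadd45b.

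Both calls in STA depend on the choice of libraries and cells. With each of the 6 mice left out in turn Klf6 passed in 4 fits and Zfp36 in 0. Over all lymphoid cells of a mouse neither passed in edgeR, and 2 members were higher and 4 lower at an unadjusted p below 0.05, with Klf6 at -0.76 (adjusted p = 0.149, edgeR) and Zfp36 at -0.61 (adjusted p = 0.45, edgeR). STA cells took their class from their nearest annotated neighbours, whereas the other mice have the authors' classes. With 1 rule for all 3 wells 4 members were lower, a count given without the share over all genes. The mast cell marker sum was 1808 CPM in STA mouse 2, the mouse with the lowest Klf6, and 22.2 and 27.4 CPM in the other STA mice, and its part in the values was not tested.

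With Il23mc more members passed against healthy mice, but against STA no more than in the comparison of STA with healthy mice. Against STA alone, Rgs1 and Btg1 rose (1.11% of genes were higher) and none fell (0.596% lower). At an unadjusted p below 0.05, 9 members were higher and 3 lower, and DESeq2 called 2 and 1 (71 and 36 of all genes). Rgs1 was at 1845, 1498 and 1180 CPM with Il23mc and 970, 879 and 930 CPM in STA mice, and rose by 0.73 (SE 0.154, adjusted p = 0.0226, edgeR). Btg1, an antiproliferative gene of the BTG/TOB family, was at 4749, 4286 and 3530 CPM against 3470, 2759 and 2845 CPM, a rise of 0.51 (SE 0.119, adjusted p = 0.0439, edgeR). Neither pair of groups overlaps. In 6 fits that each left out 1 mouse Rgs1 passed 2 times and Btg1 1 time. Of the most abundant others, Rgs2 was at 0.15, Fos at 0.04, Zfp36l1 at 0.18, Nr4a1 at 0.04, Gadd45b at -0.32 and Junb at 0.27.

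Against healthy mice, which shares the Il23mc mice with the comparison before, 7 members were higher (4.73% of genes) and 2 lower (2.83%), with a median of -0.10 against -0.01 over all genes. The signalling regulators Rgs1 (0.95, SE 0.155, adjusted p = 0.00117, edgeR) and Dusp5 (0.65, SE 0.145, adjusted p = 0.0105, edgeR) rose. For Dusp5 the healthy mice gave 322, 331 and 290 CPM, the STA mice 418, 391 and 404 CPM and the Il23mc mice 410, 440 and 525 CPM. Btg1 rose by 0.78 (SE 0.12, adjusted p = 7.14e-04, edgeR) from 2612, 2448 and 2804 CPM, and Zfp36l1, a relative of Zfp36, by 0.50 (SE 0.141, adjusted p = 0.0429, edgeR).

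Ier5, Maff and Egr1, all transcription regulators, rose with them. The first, a co-regulator of heat shock factor, went from 104, 112 and 128 CPM to 163, 223 and 204 CPM (0.89, SE 0.161, adjusted p = 0.00247, edgeR). Maff, a small MAF protein, went from 35.2, 26.1 and 29.3 CPM to 54.6, 45.1 and 56.7 CPM (0.91, SE 0.206, adjusted p = 0.0117, edgeR). Egr1 was at 109, 123 and 170 CPM in healthy mice and at 893, 349 and 148 CPM with Il23mc (1.86, SE 0.429, adjusted p = 0.0135, edgeR), and the third Il23mc mouse lies within the healthy range. Klf6 and Klf10 fell. Klf10, which is induced by TGF-beta, was at 161, 118 and 142 CPM in healthy mice and 68, 68.6 and 51.6 CPM with Il23mc (-1.04, SE 0.213, adjusted p = 0.00669, edgeR). Klf6 was at 1160, 1076 and 716 CPM with Il23mc (-0.87, SE 0.189, adjusted p = 0.00946, edgeR).

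Btg1, Ier5, Klf6, Klf10 and Rgs1 passed in all 6 fits that left out 1 mouse, and Zfp36l1 in 1. Not past the threshold, with the highest levels, were Rgs2 (-0.33), Fos (-0.41), Nr4a1 (-0.17), Gadd45b (-0.48), Junb (0.31) and Btg2 (-0.17). Cells with a UMI of Cd3d or Cd3e, subunits of the T cell receptor complex that the sort gate selects against, made up 33, 12.5 and 6.2% of ILC2 in the 3 Il23mc mice and 1.64, 1.2 and 1.31% in the healthy mice. The order of Egr1 over the Il23mc mice is the order of these shares. Without those cells 10 members were higher (6.41% of 6931 genes) and 3 lower (3.56%), all 9 members named here still passed, and Egr1 was at 1.06 in place of 1.86 (adjusted p = 0.0119, edgeR). The ILC3 marker sum in ILC2 was 899 to 3290 CPM with Il23mc and 614 to 753 CPM in healthy mice, and its part was not tested.

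**Figure D2:**
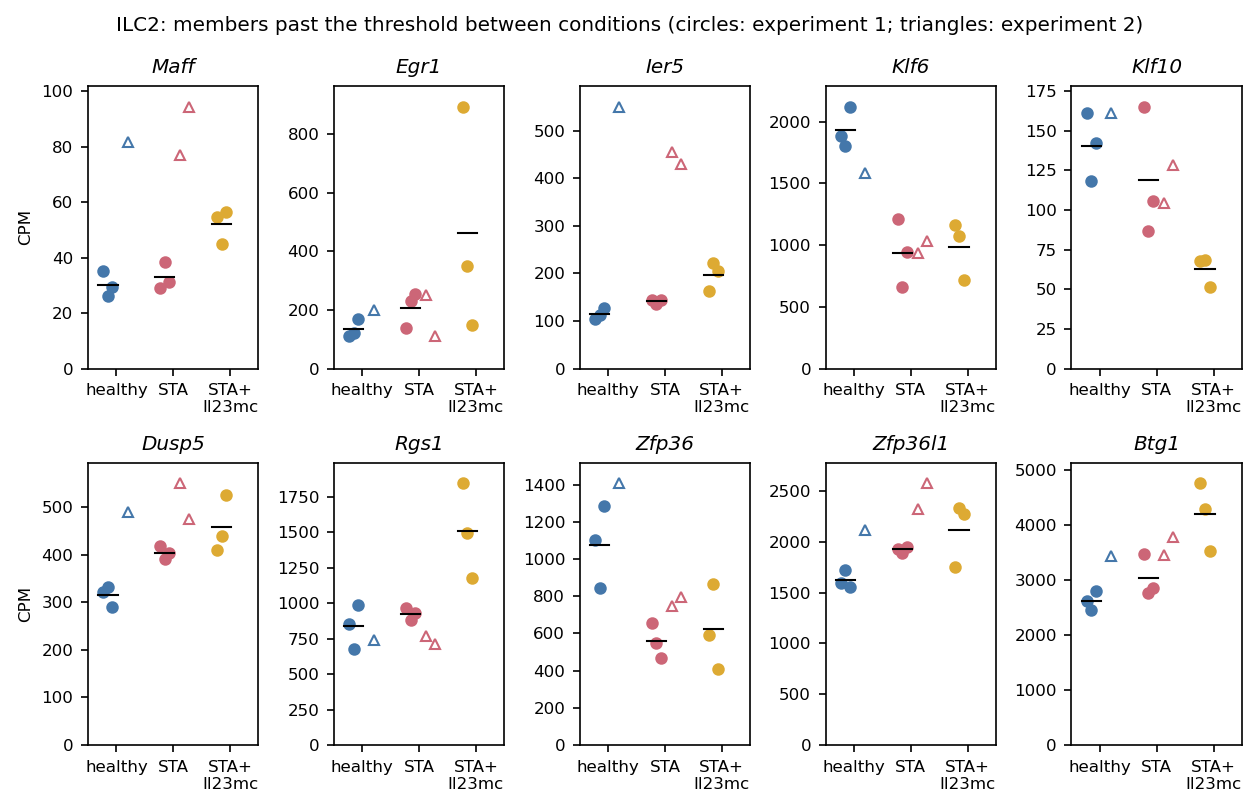
CPM in ILC2 of the 10 members past the threshold between conditions, by condition, with a circle for each mouse of experiment 1, a triangle for each hashtag of experiment 2 and a line at the mean of the 3 mice of experiment 1. In experiment 1 Klf6 sits lower in both arthritis conditions than in all healthy mice and Zfp36 in STA, whereas the Zfp36 values with Il23mc overlap the healthy ones; Rgs1 and Btg1 reach their highest values, 1845 and 4749 CPM, with Il23mc; the triangles of Ier5 and Maff lie above all circles.

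Other genes of the pathway gave few calls in ILC2. In STA against healthy mice, 0 of 17 upstream kinases and factors tested passed (Map2k1 0.80, adjusted p = 0.12, edgeR) and 1 of 16 NF-kB response genes rose, Cd83 (1.15, SE 0.207, adjusted p = 0.00738, edgeR), a surface protein of activated leukocytes. Of 6 later ERK feedback genes tested (Dusp4 1.48, Ets2 0.35) and 10 heat shock genes (Hspe1 0.57, Dnajb1 0.62) 0 passed. With Il23mc against STA, Cd83 fell again (-0.92, SE 0.207, adjusted p = 0.0339, edgeR) and the chaperone Hsp90aa1 rose (1.12, SE 0.24, adjusted p = 0.0258, edgeR). Against healthy mice 3 of 10 heat shock genes rose with Il23mc, among them Hsp90aa1 (1.26) and Hsph1 (1.60), and 1 upstream factor, Crem (0.75, SE 0.203, adjusted p = 0.0337, edgeR).

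In ILC3 most called members were lower with Il23mc, and in Il23mc mice 1 and 2, but not 3, most cells held a Cd3d or Cd3e UMI. Of 34 members tested (Fosl1 was too low), 17 fell (11.5% of 6953 genes) and 5 rose (12.8%), and the median change was -0.63 against -0.01 over all genes. Of these 22 members 13 passed in all 6 fits that left out 1 mouse. Klf10 passed in 5, Jun and Klf4 in 4, Maff and Zfp36 in 3, Fosl2 in 2, and Nr4a3, Gadd45b and Gadd45g in 1. All 3 NR4A receptors were lower. Nr4a2 was at 443, 315 and 317 CPM in the healthy mice and 60.1, 93 and 59 CPM with Il23mc, without overlap (-2.20, SE 0.233, adjusted p = 3.24e-05, edgeR), Nr4a1 changed by -1.15 and Nr4a3 by -0.55. Of the AP-1 group Atf3 was at 324, 394 and 379 CPM against 43.3, 59.5 and 169 CPM (-2.51, SE 0.321, adjusted p = 1.31e-04, edgeR), and Fos (-1.09), Fosb (-0.95) and Fosl2 (-0.57) fell as well. Egr3 (-2.12), Klf10 (-1.32), Klf4 (-1.25) and Klf6 fell among the other regulators, the last from 1023, 1061 and 833 CPM to 455, 485 and 464 CPM (SE 0.158, adjusted p = 6.70e-04, edgeR).

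Rgs2 was at 4027, 2963 and 3241 CPM in healthy ILC3 and at 882, 1073 and 2241 CPM with Il23mc, again without overlap (-1.28, SE 0.272, adjusted p = 0.00455, edgeR). Dusp1, the phosphatase that inactivates p38 and JNK, changed by -1.15, Gadd45b by -0.99 and Gadd45g by -0.68, and of the decay genes Zfp36 by -1.15 and Zfp36l2 by -1.12. Higher were Egr1 (2.11), Jun (1.55), Maff (1.28), Rgs1 (1.24) and Btg1 (0.68). Rgs1, as in ILC2, was higher in every Il23mc mouse, at 2512, 3097 and 2166 CPM against 1487, 709 and 1259 CPM (SE 0.232, adjusted p = 0.0021, edgeR), whereas Jun overlapped, at 200, 234 and 33.7 CPM against 86.8, 76.9 and 51.6 CPM. The abundant members that did not pass were Junb (-0.06), Zfp36l1 (-0.56), Btg2 (-0.23), Dusp5 (-0.21), Jund (0.43) and Csrnp1 (-0.11).

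Cells with a Cd3d or Cd3e UMI were 88.7, 81.4 and 25% of ILC3 in the 3 Il23mc mice and 0, 1.33 and 7.13% in the healthy mice. Of the 7 T cell markers 6 were higher with Il23mc and 0 were lower, and the summed level of the list ran from 1601 to 4924 CPM against 922 to 1077 CPM. All 6 ILC3 markers were higher, at 2351 to 7986 against 403 to 587 CPM. Within Il23mc mice 1 and 2, 23 of 35 members were lower in the cells with such a UMI than in those without, in both mice, 7 were higher in both, and the remaining 5 went opposite ways. The share over all genes was not counted, so these numbers describe the members alone. The members took 1.37 and 1.41% of the UMIs of the cells with a Cd3d or Cd3e UMI in those mice, and 2.23 and 2.36% of the UMIs of the cells without.

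Leaving out the cells with Cd3d or Cd3e removed 410 of 462, 180 of 221 and 7 of 28 ILC3 of Il23mc mice 1, 2 and 3. Of 30 members still tested, 5 were higher (5.95% of 3728 genes) and 4 lower (4.02%), in place of 17 lower. The 4 were Klf6 (408, 467 and 361 CPM against 1023, 1060 and 848 CPM; -1.17, adjusted p = 2.37e-04, edgeR), Atf3 (-1.21, adjusted p = 4.00e-04, edgeR), Gadd45b (-0.77, adjusted p = 0.0116, edgeR) and Egr3 (-1.66, adjusted p = 0.0305, edgeR). Rgs1 (1.41), Egr1 (1.35) and Btg1 (0.75) stayed higher. Dusp5 and Ier5, which had not passed over all ILC3, were now called higher too, Dusp5 from a negative value over all ILC3. Rgs2 (-0.13), Nr4a1 (-0.12) and Dusp1 (-0.05) no longer passed, and Nr4a3 (0.03), Fosl2 (0.30) and Zfp36l2 (0.03) turned in sign. The share of UMIs of the whole set was then 2.23, 2.36 and 1.94% with Il23mc and 2.26, 1.76 and 1.96% in healthy mice. Leaving out Il23mc mouse 3 as well gave 5 higher (3.89% of 4827 genes) and 3 lower (2.44%).

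**Figure D3:**
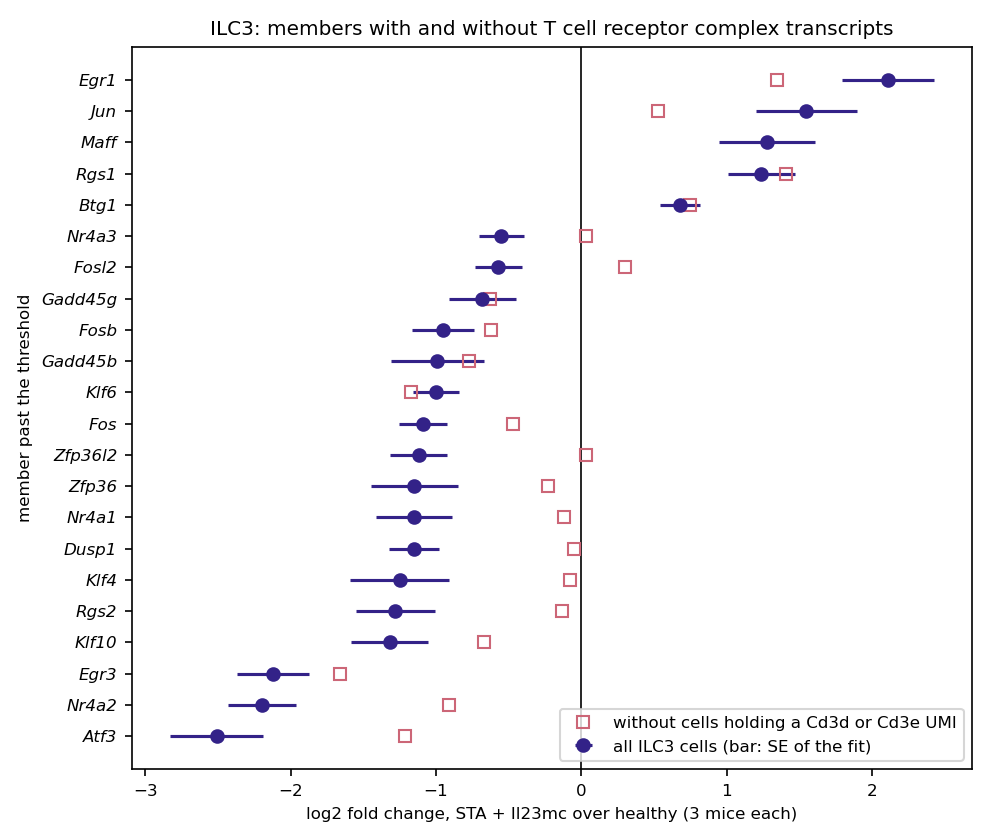
Log2 fold changes in ILC3 of STA + Il23mc over healthy mice for the 22 members past the threshold, with filled circles and SE bars for all ILC3 and open squares for ILC3 without a Cd3d or Cd3e UMI (Maff was not tested there). The squares of Klf6, Rgs1 and Btg1 lie near their circles, while those of Rgs2, Dusp1, Nr4a1, Klf4 and Zfp36l2 lie close to 0.

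The ILC3 and ILC2 changes with Il23mc were compared in 1 fit with a term for the mouse. The change was lower in ILC3 for 12 of 35 members and higher for none (4.2% of 8052 genes differed in either direction). Differences of the log2 changes were -1.75 for Atf3 (SE 0.289, adjusted p = 0.00115, edgeR), -1.70 for Nr4a2 (SE 0.203, adjusted p = 7.52e-05, edgeR) and -1.73 for Klf4 (SE 0.313, adjusted p = 0.00248, edgeR), and from -1.30 to -0.80 for the other 9. Without the cells holding Cd3d or Cd3e 0 of 35 passed in edgeR (0.435% of genes), with 2 higher and 8 lower at an unadjusted p below 0.05. The pathway genes in ILC3 can be read against the 12.8% of all genes that rose and 11.5% that fell: 2 of 17 upstream genes rose and 3 fell (Mapk9 0.89, Elk4 -0.55), 3 of 16 NF-kB genes rose and 4 fell (Bcl3 2.19, Cd83 -4.19), 1 of 6 ERK feedback genes rose and 2 fell (Spred2 1.59, Ets2 -1.46) and 2 of 9 heat shock genes rose (Hsp90aa1 1.14, Hsph1 1.52). Without the cells holding Cd3d or Cd3e, 1 of 14 upstream genes rose and 1 fell, 1 of 16 NF-kB genes rose and 2 fell, 2 of 9 heat shock genes rose, and neither of the ERK feedback genes still tested passed (edgeR).

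In fibroblasts of arthritic joints 9 members fell (7.93% of 13328 genes) and 1 rose (8.21%), comparing 3 STA with 2 healthy hashtags over both experiments in edgeR with a term for experiment. The median change was -0.34 over the members and 0.01 over all genes. Rgs2 rose by 1.22 (SE 0.189, adjusted p = 0.00985, edgeR): the healthy hashtags held 49.1 and 44.4 CPM and the STA hashtags 108 CPM in experiment 1 and 127 and 86.4 CPM in experiment 2. Maff was at 159 and 229 CPM in healthy and 52.5, 122 and 123 CPM in STA fibroblasts, without overlap (-1.19, SE 0.165, adjusted p = 0.00749, edgeR). Klf4, one of the factors that maintain quiescence, was at 1770 and 1968 CPM against 783, 1360 and 1260 CPM (-0.83, SE 0.145, adjusted p = 0.0137, edgeR).

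Of the other AP-1 factors Atf3 fell by 0.70 (748 and 797 CPM to 390, 521 and 578 CPM; SE 0.124, adjusted p = 0.0145, edgeR) and Junb by 0.61, with healthy values of 1464 and 2259 CPM and STA values of 812, 1545 and 1765 CPM that overlap across the experiments. Further calls were Csrnp1 (-0.68), Myc (-0.59) and Ier2 (-0.50) among the transcription regulators, Gadd45b (-0.64) among the signalling regulators and Btg2 (-0.42), a p53 target, among the growth arrest genes, with edgeR adjusted p from 0.0161 to 0.0493. Fos (-0.08), Jun (-0.02), Egr1 (-0.27), Fosb (-0.02), Zfp36 (-0.58) and Zfp36l1 (-0.47), all abundant, did not pass.

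Leaving out 1 hashtag at a time left 2 to 15 members lower and 0 to 2 higher. Klf4 and Maff passed in all 5 such fits, Rgs2 in 4 and Btg2 in 0. The fit without a term for experiment called 1 member higher and 0 lower, with 7 lower at an unadjusted p below 0.05. The counts of this fit and of those that left out a hashtag are given without the share over all genes. They cannot be told from a general change in the number of genes called. With the term 18 were lower at that level, and DESeq2 called 11 lower (758 of all genes). Within experiment 1, 29 of 33 measured members were lower in the STA than in the healthy hashtag (median -0.54), and within experiment 2 24 of 33 in the mild and 24 of 33 in the severe hashtag (medians -0.18 and -0.17), with medians of 0.01 to 0.03 over all genes and with the healthy hashtag shared.

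Other measures of these libraries moved with arthritis. Median UMIs per fibroblast were 7748 in the healthy and 16917 in the STA hashtag of experiment 1, and 11074 in the healthy and 16180 and 14766 in the STA hashtags of experiment 2. The median of the stress score in the authors' table was 0.832 in healthy and -0.0587 in STA fibroblasts of experiment 1, and 0.382 against 0.265 and 0.328 in experiment 2. All 3 muscle markers fell, their summed level being 32.8 and 47.1 CPM in healthy and 18.5 to 21.6 CPM in STA hashtags. The part of these measures in the result was not tested.

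The make-up of the sorted fibroblasts also differed. The authors' Mmp3+ class was 2.16 and 9.21% of the healthy hashtags and 66.5, 45.6 and 38.4% of the STA hashtags, and Pi16+ cells 44.4 and 40% against 8.12, 19 and 21.1%. Without Mmp3+ cells 0 members passed in either direction in edgeR (0.194% of 12376 genes were higher and 0.42% lower), and 2 were higher and 7 lower at an unadjusted p below 0.05, with Rgs2 at 0.74, Maff at -0.68 and Klf4 at -0.38 (adjusted p 0.114 to 0.243, edgeR). Within Pi16+ cells 24 of 35 members were lower in STA in experiment 1 but 8 and 10 in the mild and severe hashtags of experiment 2, and within Il6+ cells 22, 16 and 11. Of the 10 members called in the sums (9 lower, and Rgs2 higher), 3 were lower in all 3 STA hashtags within Pi16+ and 4 within Il6+ cells. Maff was among both: its log2 ratios were -1.31, -0.49 and -0.46 in Pi16+ and -1.33, -0.63 and -0.37 in Il6+ cells. Rgs2 ratios were 0.56, 1.09 and 0.61 in Pi16+ and 0.05, 1.34 and 0.44 in Il6+ cells. These within-class values are descriptions without a test, and the share over all genes was not counted.

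**Figure D4:**
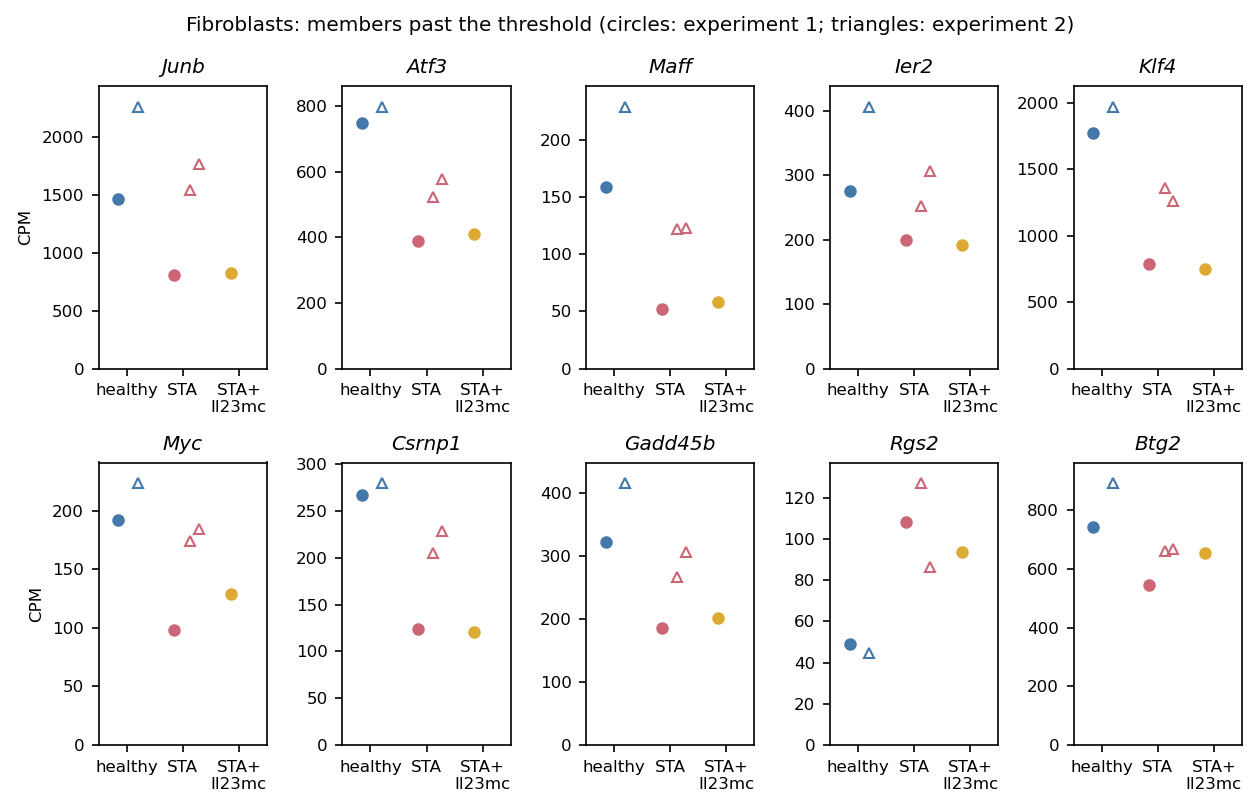
CPM in fibroblasts of the 10 members past the threshold in STA against healthy, by condition, with a circle for each hashtag of experiment 1 and a triangle for each of experiment 2. Rgs2 is the one panel in which both healthy hashtags (49.1 and 44.4 CPM) lie below every arthritis hashtag. In the Maff, Klf4, Atf3, Csrnp1, Gadd45b, Myc and Btg2 panels both healthy hashtags lie above them, and in the Junb and Ier2 panels the values overlap.

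Whether STA changed a gene differently in fibroblasts and ILC2 was tested directly, in a fit over both cell types. It did for 4 of 35 members (1.84% of 12473 genes). Rgs2 rose in fibroblasts relative to ILC2, with a difference of 1.65 (SE 0.198, adjusted p = 2.38e-04, edgeR). This fit holds the ILC2 of both experiments, so the ILC2 change in it is not the -0.47 of experiment 1 alone. Maff (-1.37, SE 0.223, adjusted p = 0.00317, edgeR), Klf4 (-1.08, SE 0.24, adjusted p = 0.0242, edgeR) and Zfp36l1 (-0.77, SE 0.19, adjusted p = 0.0417, edgeR) were lower in fibroblasts relative to ILC2. Without Mmp3+ cells 0 passed (0.112% of genes), with 3 higher and 5 lower at an unadjusted p below 0.05, Rgs2 being at 1.16 (adjusted p = 0.061, edgeR).

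The other pathway lists in fibroblasts can be read against the 8.21% of all genes that rose and 7.93% that fell. Of 15 NF-kB response genes tested 7 fell and 0 rose, among them the adhesion molecule Icam1 (-1.70, SE 0.164, adjusted p = 0.00348, edgeR) and Tnfaip3, the feedback inhibitor A20 (-1.13, SE 0.127, adjusted p = 0.00501, edgeR). Of 9 later ERK feedback genes 1 rose and 2 fell (Spry4 -1.27, Ets2 -0.63), of 19 upstream genes 1 rose and 2 fell (Rps6ka5 -1.18, Rps6ka3 -0.55), and of 10 heat shock genes 3 rose and 1 fell (Hspe1 0.66, Hspa1b -0.49). Without Mmp3+ cells 1 NF-kB response gene, Icam1, still fell, and no other gene of these lists passed (edgeR).

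Fibroblasts of experiment 1 gave 1 hashtag with and 1 without Il23mc in STA. Of 33 members with at least 50 UMIs none differed 2-fold (1.87% of genes were at least 2-fold higher and 2.12% lower), and 21 were higher, with a median log2 ratio of 0.06 against -0.24 over all genes. The largest ratios were -0.93 for Egr3 (95% counting interval -1.11 to -0.76), -0.89 for Klf10 (-1.07 to -0.71), 0.41 for Zfp36l1, 0.39 for Myc, 0.39 for Gadd45g and 0.29 for Ier3. Counting intervals cover counting error only. Severe against mild STA likewise gave no 2-fold difference in fibroblasts (0.825 and 0.918% of genes), where Dusp5 (-0.57, -0.83 to -0.30) and Rgs2 (-0.56, -0.70 to -0.41) were lower in the severe hashtag and Egr2 (0.32), Zfp36 (0.31), Ier2 (0.28) and Egr3 (-0.27) followed. In ILC2 1 member was more than 2-fold lower in the severe hashtag (0.336% of genes; 0.689% higher): Egr1, at 110 against 252 CPM (-1.20, -1.37 to -1.02). Ier3 (-0.86), Egr2 (0.43), Egr3 (-0.34), Dusp1 (-0.32) and Klf10 (0.30) came next. These ratios have no replicate check.

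The authors' classes differed in how much of the set they carried, and since classes were made from these cells' expression the following is a description. Medians over hashtags were 3.68% of UMIs in ILC2-1, 2.98% in ILC2-2 and 1.96% in ILC2-3, 1.53% in ILC3-1, 2.02% in ILC3-2 and 1.35% in precursors. Fibroblast classes had 2.69% in Pi16+, 2.62% in Cd200+, 2.52% in Il6+, 1.9% in Mmp3+ and 1.31% in lining cells. ILC2-1 and ILC2-3 were told apart by Fos, at median levels of 5954 and 153 CPM (1034 CPM in ILC2-2), by Egr1 (366 and 23.5 CPM), Zfp36 (1834 and 174 CPM) and Dusp1 (2289 and 311 CPM). Not every member followed: Dusp5 was at 189, 410 and 561 CPM and Nr4a3 at 313, 626 and 758 CPM in ILC2-1, -2 and -3, and Rgs1 at 670, 1155 and 1075 CPM. In all 7 hashtags with both classes, 12 members were higher in ILC2-1 than in ILC2-3 and 6 were lower, as were 11 and 8.56% of the 7467 genes with at least 50 UMIs.

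Among fibroblast classes, 16 of the 33 members with at least 50 UMIs were higher in Pi16+ than in Mmp3+ cells in all 5 hashtags with both and 5 were lower, as were 18.4 and 12.9% of the 12197 such genes. Rgs2 was at a median of 120 CPM in Mmp3+, 254 CPM in Cd200+, 39.6 CPM in Pi16+ and 33.9 CPM in Il6+ cells, while Maff was at 72.7 CPM in Mmp3+, 118 CPM in Pi16+ and 251 CPM in Il6+ cells. ILC2-1 cells were 60 of 183, 90 of 417 and 95 of 229 ILC2 in the healthy mice and 73 of 191, 93 of 296 and 34 of 258 with Il23mc. Il23mc mouse 3, with the lowest share, also had the lowest Fos of the 9 mice (755 CPM). The authors' table holds a stress score per cell whose make-up is not given. Across the cells of a hashtag it ran with the share of UMIs in the 35 genes, at Spearman's rho of 0.556 to 0.796 in ILC2 and 0.83 to 0.894 in fibroblasts, a description over 183 to 985 cells of a library that share their depth and may share genes with the score.

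**Figure D5:**
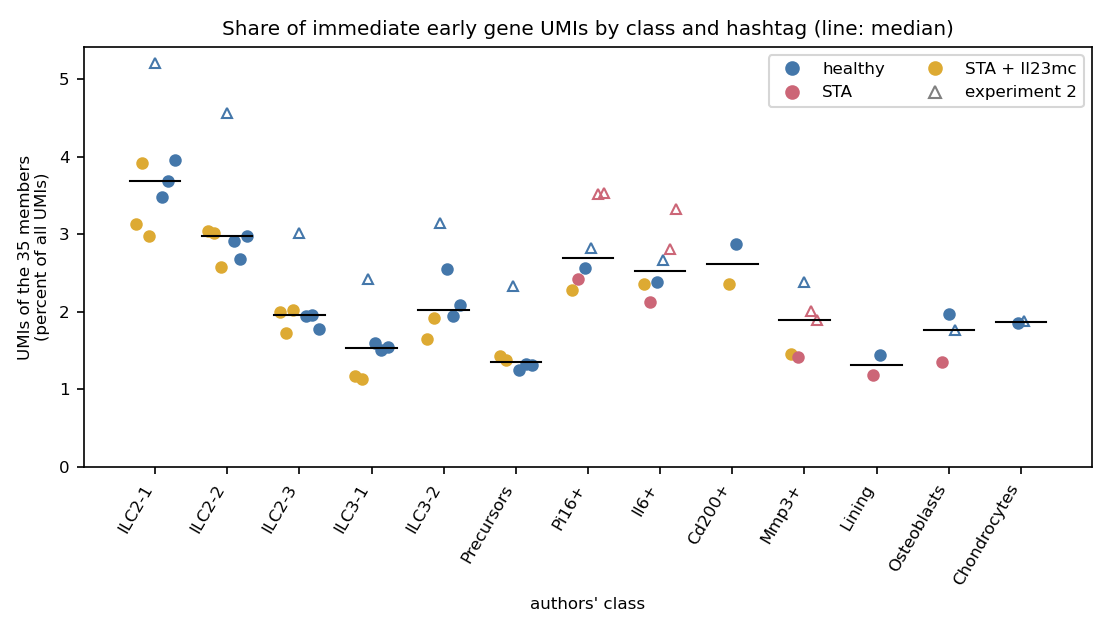
Percent of all UMIs that fell on the 35 genes, for each of the authors' classes with at least 20 cells in a hashtag (circles, experiment 1; triangles, experiment 2; line, median of the hashtags), coloured by condition. ILC2-1 has the highest median of the ILC classes at 3.68% and precursors the lowest at 1.35%, and the experiment 2 triangles of the ILC classes lie above the circles of the same class.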

How the data were processed

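Per the file headers and the labels, the authors made UMI counts per gene and cell barcode with Cell Ranger (6.1.2 in the file headers, 6.0.6 in the submitters' processing notes) on mm10, from 3' libraries and hashtag libraries in 6 wells. The authors' deposited metadata table gives cell classes, a mitochondrial fraction and a stress score per cell for 8042 cells, 8039 of which were matched to a barcode. All matched ILCs had the UMI total of that table. Only 201 of 2431 matched fibroblasts in experiment 1 and 118 of 1117 in experiment 2 did, and the reason was not tested. The genes of the stress score and the way the fraction was scaled are not given in the sources used here. ILCs of STA mice are not in the copy of that table used here.

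Cells in the authors' table kept the hashtag given there. Seurat 5.3.0 (HTODemux at a quantile of 0.99) called 141 to 1156 doublets per well (2.19 to 15.2%). Its calls set the hashtags of ILCs outside the table, and of all ILCs in the alternative with 1 rule. Doublets were left out only there. No other doublet caller was run. All fibroblasts used were in the table. ILCs outside the table needed at least 2000 UMIs, 700 genes and at most 10% mitochondrial UMIs. They took the class of 15 nearest neighbours in scanpy 1.11.5 and scikit-learn 1.9.0 (2000 variable genes, 30 components). When annotated wells were treated the same way, 71.4 to 99.5% of ILC2 but 19 to 95.1% of ILC3 kept their class, so ILC3 were compared only where the authors' classes exist. UMIs were summed per hashtag and tested over all genes with edgeR 4.0.16 (quasi-likelihood, TMM, filterByExpr, Benjamini-Hochberg, threshold 0.05; R 4.3.3). Alternatives were DESeq2 1.42.0, other scaling, no filter, other sets of cells and each hashtag left out. Ratios of 1 hashtag to 1 carry 95% counting intervals. The scripts were tested on simulated data.

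Members and other gene lists were chosen with earlier results of these data known. Every member past the threshold is named, then up to 6 of the others by mean CPM (for single hashtags, the 6 largest ratios among members with at least 50 UMIs), and up to 2 genes of each other list by p.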

Additional observations from a re-analysis of the deposited data

Results flagged for a closer look

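The change in STA differed between fibroblasts and ILC2 for 4 members, by a test of the difference itself in edgeR (adjusted p from 2.38e-04 to 0.0417). The difference of the log2 changes, fibroblasts minus ILC2, was 1.65 for Rgs2, -1.37 for Maff, -1.08 for Klf4 and -0.77 for Zfp36l1. The Mmp3+ share of fibroblasts rose from 2.16 and 9.21% to between 38.4 and 66.5% in STA, and without Mmp3+ cells the differences were 1.16, -0.87, -0.64 and -0.39, of which 0 passed. Fibroblasts and ILC2 came from separate wells, so cell type and well cannot be told apart.

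The change with Il23mc against healthy mice differed between ILC3 and ILC2 for 12 members, by the same kind of test with a term for the mouse (adjusted p from 7.52e-05 to 0.0415, edgeR). The differences, ILC3 minus ILC2, were -1.70 for Nr4a2, -1.03 for Nr4a1 and -0.97 for Nr4a3 among the orphan receptors, -1.75 for Atf3 and -0.80 for Fosl2 among the AP-1 group, and -1.73 for Klf4 and -1.30 for Egr3. They were -1.07 for Rgs2, -0.91 for Dusp1 and -0.86 for Dusp5 among the signalling regulators, and -1.22 for Zfp36l1 and -1.08 for Zfp36l2 among the decay genes. Cells with a Cd3d or Cd3e UMI were 25 to 88.7% of ILC3 and 6.2 to 33% of ILC2 in the Il23mc mice, and without them 0 members passed.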

How the results depend on the processing

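Counts of members called are given as higher and lower, without the share over all genes for each alternative. ILC2 in STA against healthy gave 0 and 2, and 1 lower with upper-quartile factors, 1 and 6 without a filter on low counts, 4 lower in a fit of the 2 groups alone, 4 lower with 1 rule for classes, 0 lower over all lymphoid cells and 2 and 4 without cells holding Cd3d or Cd3e. Leaving out 1 mouse gave 0 to 0 higher and 0 to 2 lower. ILC2 with Il23mc against STA gave 2 and 0, and 1 lower with DESeq2, 1 and 1 with upper-quartile factors, 5 and 1 without a filter, 1 higher with the 2 groups alone, 5 higher with 1 rule, 0 and 1 over all lymphoid cells, 6 higher without Cd3d or Cd3e cells, and 0 to 4 and 0 to 1 with a mouse left out. Against healthy the counts of 7 and 2 became 4 lower with DESeq2, with upper-quartile factors and with 1 rule, 7 lower without a filter, 4 and 4 over all lymphoid cells, and 4 to 8 and 2 to 5 with a mouse left out.

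ILC3 gave 5 and 17, and 3 higher with DESeq2, 4 lower without Cd3d or Cd3e cells, 3 lower when Il23mc mouse 3 was also left out, and 3 to 6 and 11 to 18 with a mouse left out. Of the members called there, values turned in sign without Cd3d or Cd3e cells for Nr4a3 (0.03), Fosl2 (0.30) and Zfp36l2 (0.03), and with mouse 3 left out as well for Nr4a3 (0.11), Fosl2 (0.46), Nr4a1 (0.04), Dusp1 (0.21) and Zfp36l2 (0.30). Fibroblasts gave 1 and 9, and 4 higher without a filter, 4 higher without chondrocytes and osteoblasts, 0 and 0 without Mmp3+ cells, 0 lower with no replicate block and no experiment term, and 0 to 2 and 2 to 15 with a hashtag left out. ILC2 against fibroblasts stayed within 17 to 23 higher and 8 to 13 lower, and Fosb turned to -0.21 over all lymphoid cells. Except where fewer cells or samples were used, the cause was not tested. Over all members called and alternatives, 624 values kept their direction and side of the threshold, 160 kept the direction only and 9 turned.

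With the mouse number as a replicate block the counts were 0 and 3 in STA against healthy, 2 and 1 with Il23mc against STA, 7 and 2 against healthy, and 4 and 14 in ILC3. Same-numbered ILC2 mice correlated at -0.13 to 0.14, so the numbers only name the mice. Alternatives on Cd3d or Cd3e cells within mice, Mmp3+ cells, Pi16+ and Il6+ classes and differences between cell types were chosen after seeing the data. The smallest ILC3 sum compared held 118674 UMIs, and 85866 without Cd3d or Cd3e cells, where 3728 genes were tested in place of 6953.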
